A study of Homo sapiens with 6 samples.

Results

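Genes for transcription factors of myeloid and blood stem cells were followed in K562 cells treated with an inhibitor of EZH2, the catalytic subunit of Polycomb repressive complex 2 (PRC2). The set held 10 genes, RUNX1, RUNX3, CBFB, SPI1, CEBPA, FLI1, ERG, MECOM, ETV6 and IKZF1. They were taken by symbol from the 60671 gene identifiers counted, and each symbol matched 1 identifier. Of the 10, 7 had enough reads to be tested, and RUNX3, FLI1 and ERG had at most 2 reads in any library. CBFB encodes a partner subunit that does not bind DNA itself, whereas the other 9 encode DNA-binding proteins.

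K562 is a chronic myeloid leukemia line with erythroid features. All 6 libraries came from a single clone of it that carries a doxycycline-inducible Flag-NLS-M.CviPI-Lamin-B1 fusion, a GpC methyltransferase tethered to the nuclear lamina. The DMSO group (n = 3) received vehicle at 0.1% and the EZH2i group (n = 3) received 1 µM GSK343, both for 72 h, and both groups were given doxycycline at 1 µg/mL over the last 24 h, so the induced fusion was common to treated and control cells. The clone limits what is measured to 1 derivative of 1 line. Polyadenylated RNA was sequenced from the 3′ end, and the 3 replicates of each group were separate cultures.

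These factors form a network in blood cell development. RUNX proteins bind DNA as a heterodimer with CBFβ, PU.1 (the product of SPI1) and C/EBPα drive granulocytic and monocytic differentiation, FLI1, ERG and ETV6 are ETS proteins of stem cells and megakaryocytes, MECOM sustains stem cells, and IKZF1 encodes the zinc-finger protein Ikaros of lymphoid and erythroid cells. Several of them are altered in leukemia. PRC2 deposits H3K27me3, a histone mark of repressed developmental genes, and the comparison asked how transcript levels of the 10 genes differed once its catalytic subunit was inhibited.

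None of the 10 genes passed the test for a difference between EZH2i and DMSO. Of the 7 tested, 0 had an adjusted p under 0.05 by the quasi-likelihood test of edgeR (Benjamini-Hochberg over all tested genes), and 0 by either DESeq2 or limma-voom. Over all 12364 tested genes the share called was 4.26% (527 genes, 413 higher and 114 lower in EZH2i). At an unadjusted p under 0.05 there were 2 of the 7, ETV6 and SPI1, where 19.1% of all tested genes reached that level. The median log2 fold change of the 7 was 0.23, with 6 above 0. The median over all tested genes was -0.0002, with 6178 of 12364 above 0. The 7 include CEBPA, which entered the test only through its EZH2i libraries, so the filter favoured a value above 0 for it. The 95% intervals of 6 of the 7 lay within a 2-fold change in either direction, and only the interval of CEBPA reached past it. Less of a transcript per cell and fewer cells carrying it cannot be told apart in these bulk samples.

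**Figure D1:**
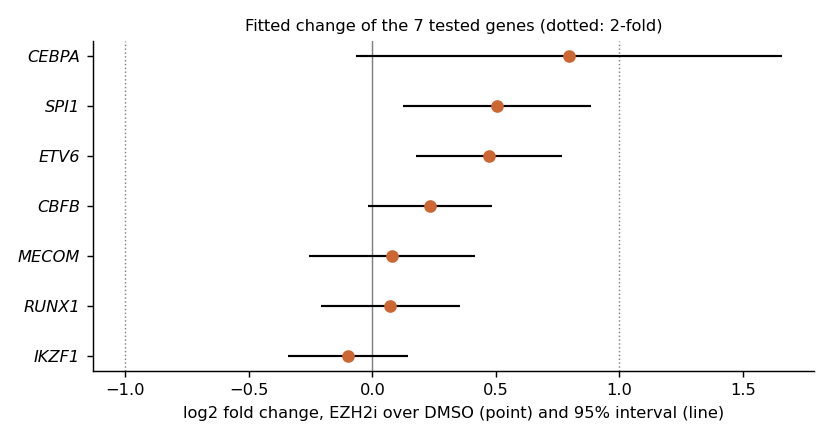
Log2 fold change of EZH2i over DMSO for the 7 tested genes (points) with 95% intervals (lines) from the edgeR fit over 6 libraries, with dotted lines at 2-fold. The intervals of ETV6 (0.18 to 0.77) and SPI1 (0.12 to 0.88) lay above 0, and the other 5 intervals included 0.

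Reads on genes ranged from 6327544 to 8987768 per library. Reads on no gene were 7.43% to 8.51% of those listed in 5 libraries and 12.7% in EZH2i replicate 3. Levels are given as CPM, the read count divided by the scaled total on tested genes and multiplied by 1e6. The 3′ protocol gives about one read per transcript whatever its length, so CPM was not divided by length, and the ease of 3′ priming can still differ between genes. Among the erythroid markers, GATA1 was at 79.9 ± 5.15 CPM in DMSO and HBG2, HBZ, ALAS2, KLF1 and TFRC each had at least 464 reads in every library, whereas HBG1 had 35 to 111 reads and HBE1 had 1 to 6. Of the granulocytic and monocytic markers, LYZ had 97 to 170 reads per library and ITGAM 9 to 11, while MPO, ELANE and CSF1R had at most 1 and CD14 at most 2. Of the stem and progenitor markers, KIT had 107 to 211 reads, while CD34 had 0 and PROM1 at most 1.

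The 10 genes spanned from no reads to 263 CPM in a library. CBFB was highest in DMSO, at 189 ± 9.41 CPM (SD, n = 3), followed by IKZF1 at 102 ± 13.4 CPM, ETV6 at 29.7 ± 1.15 CPM, MECOM at 25.7 ± 3.78 CPM, RUNX1 at 22.5 ± 1.26 CPM, SPI1 at 17.3 ± 2.94 CPM and CEBPA at 1.11 ± 0.287 CPM. The ranges over libraries overlapped for the neighbours ETV6 and MECOM and for MECOM and RUNX1, so their order in DMSO was not resolved. In EZH2i the ranges of MECOM and RUNX1 and of RUNX1 and SPI1 overlapped. CBFB and IKZF1 stood apart from each other and from the remaining genes in both groups. The sum over the 10 genes was 388 ± 22.1 CPM in DMSO and 437 ± 31.2 CPM in EZH2i.

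**Figure D2:**
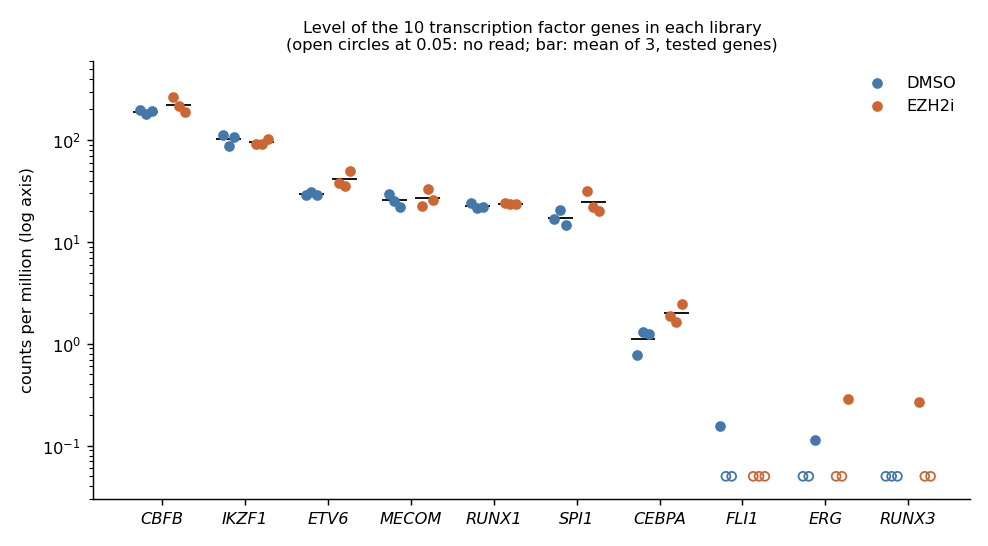
CPM of the 10 genes in each library on a log axis, ordered by the DMSO mean, with DMSO in blue, EZH2i in orange and bars at the mean of 3 libraries for the tested genes. Open circles drawn at 0.05 are libraries with no read. CBFB and IKZF1 lie highest, 4 genes lie between 14.8 and 50.1 CPM, and FLI1, ERG and RUNX3 have 0 to 2 reads per library.

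Within the RUNX family, RUNX1 had the highest level and did not differ detectably between groups. RUNX1, which spans 1217 kb on the minus strand (GRCh38, chr21:34787801-36004667) and is required for the emergence of blood stem cells, had 153, 181 and 195 reads in DMSO and 177, 186 and 164 in EZH2i. On the CPM scale these were 23.9, 21.5 and 22.1 in DMSO and 24.0, 23.5 and 23.5 in EZH2i, and the groups overlapped. The log2 fold change was 0.07 ± 0.13 (SE) with a 95% interval from -0.21 to 0.35, an adjusted p of 0.820 by edgeR, and values between 0.04 and 0.11 when each library was left out in turn.

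RUNX3, a relative with roles in T cells and in gastric epithelium (chr1:24899511-24965121, minus strand), had 0 reads in the 3 DMSO libraries and 2, 0 and 0 in EZH2i. The absence of reads in 24026558 DMSO reads on genes has an exact Poisson 95% upper limit of 0.154 CPM (here per unscaled reads on genes), and the 2 reads in EZH2i gave 0.0904 CPM (95% interval 0.0110 to 0.327, counting error only). RUNX2, the family member of bone formation and the remaining RUNX gene, was low in both groups, at 2.68 ± 0.260 CPM in DMSO and 3.17 ± 1.12 CPM in EZH2i (log2 fold change 0.24 ± 0.33, edgeR adjusted p = 0.752).

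CBFB, whose product stabilizes RUNX proteins on DNA (chr16:67028984-67101058, plus strand), had 1261, 1508 and 1695 reads in DMSO and 1944, 1719 and 1314 in EZH2i. The CPM were 197, 179 and 192 in DMSO and 263, 217 and 188 in EZH2i. EZH2i replicate 1 was the highest of the 6 libraries and EZH2i replicate 3 lay within the DMSO range, so the groups overlapped. The fitted log2 fold change was 0.23 ± 0.12 (95% interval -0.02 to 0.48, edgeR adjusted p = 0.291). It was 0.10 without EZH2i replicate 1 and 0.34 without EZH2i replicate 3. CBFB gave 7.53 ± 0.279 reads per read of the 3 RUNX genes in DMSO and 8.31 ± 1.59 in EZH2i, which did not differ detectably (exact permutation test, two-sided p = 0.6, where 3 against 3 cannot go below 0.1).

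Of the myeloid differentiation factors, SPI1 was expressed and CEBPA was near the lower limit of testing. SPI1 (chr11:47354860-47378547, minus strand) had 107, 173 and 130 reads in DMSO and 232, 175 and 142 in EZH2i. The CPM were 16.7, 20.5 and 14.8 in DMSO and 31.4, 22.1 and 20.3 in EZH2i. The lowest EZH2i library lay just under the highest DMSO library, so the groups overlapped by that 1 pair. The log2 fold change was 0.50 ± 0.18 (95% interval 0.12 to 0.88) with an adjusted p of 0.124 by edgeR, and it was 0.29 without EZH2i replicate 1, which held the highest value. PU.1 and the erythroid factor GATA1 are known to restrain each other. SPI1 gave 21.7 ± 3.49 reads per 100 GATA1 reads in DMSO and 25.3 ± 4.30 in EZH2i (exact permutation test, two-sided p = 0.3).

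CEBPA, a single-exon gene for a regulator of granulocyte commitment (chr19:33299934-33302534, minus strand), had 5, 11 and 11 reads in DMSO and 14, 13 and 17 in EZH2i. The CPM were 0.782, 1.31 and 1.25 in DMSO and 1.90, 1.64 and 2.44 in EZH2i, so every EZH2i library lay above every DMSO library. All 3 DMSO values were below the filter of 1.32 CPM, and the gene entered the test only through its EZH2i libraries. Among the 7 tested genes, CEBPA and ETV6 had groups that did not overlap with EZH2i higher, where 13.3% of all tested genes showed this. The log2 fold change of CEBPA was 0.79 ± 0.41 with a 95% interval from -0.07 to 1.66, the widest of the 7, and an adjusted p of 0.299 by edgeR. Its exons overlap 2 long noncoding genes on the opposite strand that had 0 reads, and the strand setting of the counting is not given in the sources used here.

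ETV6 came nearest to the threshold. ETV6, an ETS repressor needed for adult stem cells and frequently rearranged in leukemia (chr12:11649674-11895377, plus strand), had 185, 261 and 256 reads in DMSO and 282, 281 and 350 in EZH2i. The CPM were 28.9, 31.0 and 29.1 in DMSO and 38.2, 35.4 and 50.1 in EZH2i. The DMSO libraries lay close together and all 3 EZH2i libraries were above them, with EZH2i replicate 3 highest. The log2 fold change was 0.47 ± 0.14 (95% interval 0.18 to 0.77), corresponding to 1.39-fold, with an adjusted p of 0.0669 by edgeR, 0.117 by DESeq2 and 0.0847 by limma-voom. Among the 12364 tested genes, 5.39% had a smaller p. The adjusted p by edgeR was 0.0402 without EZH2i replicate 1 and 0.0447 without EZH2i replicate 2, and it was 0.255 without EZH2i replicate 3, where the log2 fold change was 0.31. EZH2i replicate 3 is also the library with 12.7% of reads on no gene. The part of that in the ETV6 value was not tested.

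**Figure D3:**
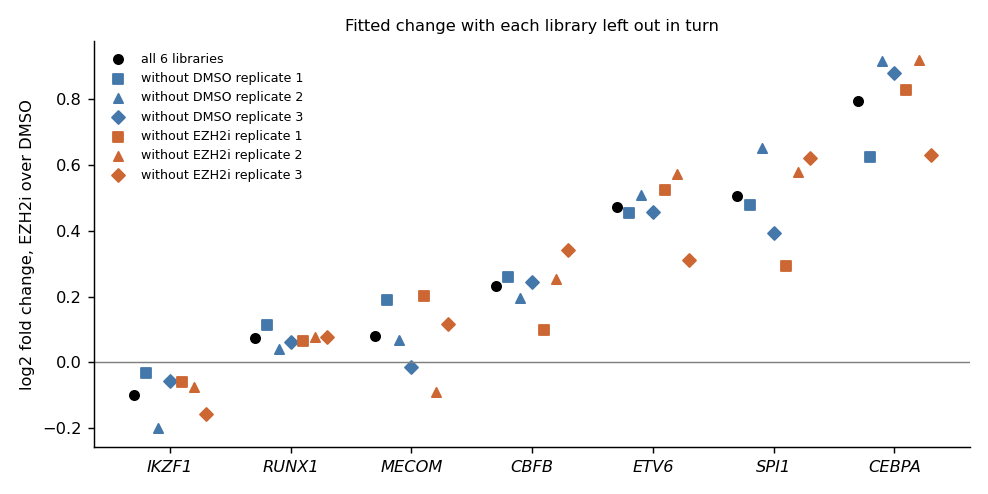
Log2 fold change of EZH2i over DMSO for the 7 tested genes with all 6 libraries (black) and with each DMSO (blue) or EZH2i (orange) library left out in turn. ETV6 ranged from 0.31 to 0.57 and SPI1 from 0.29 to 0.65, RUNX1 stayed between 0.04 and 0.11, and MECOM fell on both sides of 0.

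FLI1 and ERG, closely related ETS activators of stem cells, megakaryocytes and endothelium, had almost no reads. FLI1 (chr11:128686535-128813267, plus strand) had 1 read in DMSO replicate 1 and none in the other 5 libraries. ERG (chr21:38380027-38661780, minus strand) had 1 read in DMSO replicate 3, 2 in EZH2i replicate 3 and none elsewhere. Over all 46139822 reads on genes the upper exact Poisson 95% limits were 0.121 CPM for FLI1 and 0.190 CPM for ERG on that unscaled total, counting error only. A difference between groups could not be assessed at this depth for either gene. Of the megakaryocytic markers, GP9, PF4 and PPBP had 0 reads in all 6 libraries, GP1BA had at most 3 and ITGA2B had 4 to 14 per library.

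MECOM and IKZF1 were expressed at similar levels in both groups. MECOM, which encodes the stem cell regulator EVI1 and its PR-domain form (chr3:169083499-169663775, minus strand), had 190, 211 and 196 reads in DMSO and 166, 260 and 179 in EZH2i. The CPM were 29.7, 25.1 and 22.2 in DMSO and 22.5, 32.8 and 25.6 in EZH2i, with the highest and nearly the lowest library both in EZH2i. Its log2 fold change was 0.08 ± 0.16 (95% interval -0.26 to 0.42, edgeR adjusted p = 0.835), and its sign changed when DMSO replicate 3 or EZH2i replicate 2 was left out. Reads were counted per gene, so its isoforms were not separated.

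IKZF1 (chr7:50304068-50405101, plus strand) had 717, 734 and 950 reads in DMSO and 672, 731 and 723 in EZH2i. The CPM were 112, 87.2 and 108 in DMSO and 91.0, 92.2 and 104 in EZH2i, and the EZH2i values lay inside the DMSO range. IKZF1 was the only 1 of the 7 with a log2 fold change below 0, at -0.10 ± 0.12 (95% interval -0.34 to 0.14, edgeR adjusted p = 0.701). Leaving out DMSO replicate 1 gave -0.03 for IKZF1 and leaving out DMSO replicate 2 gave -0.20.

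The gene starts were examined in the RefSeq promoter windows (GRCh38.p14, 250 bases before to 50 after each start), which matched 7 of the 10 symbols. CBFB, SPI1 and FLI1 had no match. ETV6 and CEBPA are shown because their groups did not overlap, and RUNX3 because it is the gene of the RUNX pair that was nearly without reads and its upstream start holds RUNX letters. Capitals mark TGTGGT, searched as the core of RUNX sites on both strands, which reads ACCACA when it lies on the other strand, and GGAAGT, searched as the core of ETS sites. No match of one overlapped a match of the other in these stretches.
ETV6 (chr12:11649424-11649673, plus strand): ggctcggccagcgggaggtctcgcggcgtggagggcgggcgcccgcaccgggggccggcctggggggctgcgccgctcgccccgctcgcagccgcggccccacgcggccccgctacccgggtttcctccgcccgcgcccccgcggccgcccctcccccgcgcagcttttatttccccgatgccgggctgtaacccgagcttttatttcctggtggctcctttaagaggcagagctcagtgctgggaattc
CEBPA (chr19:33302535-33302784, minus strand): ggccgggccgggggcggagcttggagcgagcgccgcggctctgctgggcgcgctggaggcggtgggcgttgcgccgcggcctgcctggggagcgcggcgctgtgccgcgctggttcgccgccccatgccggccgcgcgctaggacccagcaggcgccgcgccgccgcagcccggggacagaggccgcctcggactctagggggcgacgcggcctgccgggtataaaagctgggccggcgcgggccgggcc
RUNX3 (chr1:24965122-24965260, minus strand): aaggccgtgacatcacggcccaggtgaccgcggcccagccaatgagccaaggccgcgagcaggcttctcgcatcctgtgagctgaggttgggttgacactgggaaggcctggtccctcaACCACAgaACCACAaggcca

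The RUNX3 stretch holds TGTGGT 2 times, both on the other strand and starting 131 and 123 bases before the RefSeq start. TGTGGT was found in 13.1% and GGAAGT in 22.8% of all 35116 promoter windows of 300 bases. These shares are per window, and RUNX3, ERG, MECOM and IKZF1 each have several windows. Neither was found in the window of ETV6 or of CEBPA. Among the matched genes TGTGGT was also present in a window of MECOM and a window of IKZF1, and GGAAGT in a window of IKZF1. The CEBPA stretch of 250 bases held 41 CpG and the ETV6 stretch 32. Their 300-base windows held 50 and 33, where the median over all 300-base windows was 14. All 7 matched genes had a window above that median, with 40 for RUNX1 and 35 at the most upstream IKZF1 start. RUNX3 at its downstream start and ERG at its most upstream start, genes nearly without reads, also had 38 and 53 CpG in 300 bases.

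Genes related to the 10 by family, partnership or known regulation were then counted in 8 lists with 83 members. Of these, 46 were tested, 5 rose and 1 fell (adjusted p under 0.05, edgeR), and their median log2 fold change was 0.05. Over all tested genes 4.26% were called, 3.34% higher and 0.922% lower, and the counts of single lists given next stand beside these shares. Another 25 had at most 3 reads in every library. The 6 that passed were RUNX1T1, FEV, CEBPG, EGR1, LYZ and KIT, in 6 different lists.

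**Figure D4:**
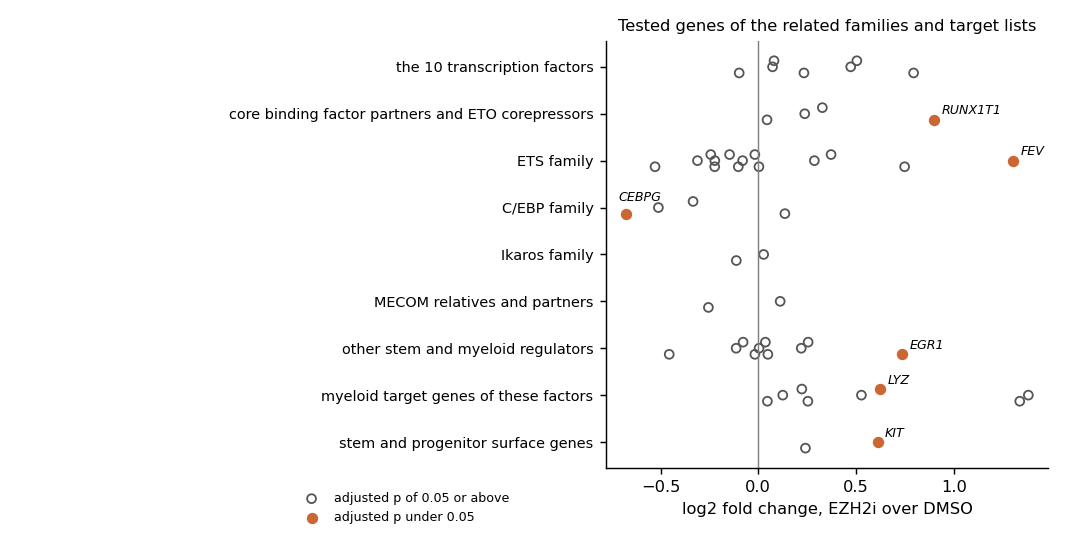
Log2 fold change of EZH2i over DMSO for each tested gene of the 10 transcription factors (top) and of 8 lists of related genes, with vertical offsets for legibility. Filled points passed an adjusted p of 0.05 (edgeR) and open points did not: 1 gene fell (CEBPG) and 5 rose, and none of the 7 tested transcription factors is filled.

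RUNX1T1, the ETO corepressor that is fused to RUNX1 in acute myeloid leukemia, rose in EZH2i. It had 98, 123 and 132 reads in DMSO and 186, 220 and 216 in EZH2i, with no overlap. In the fit, its log2 fold change was 0.90 ± 0.14 with an adjusted p of 0.00168 (edgeR), and it passed in all 13 alternative fits. It was the 1 of 4 core binding factor partners and ETO corepressors that passed, with a list median of 0.28, which was 0.10 without EZH2i replicate 3 and 0.43 without EZH2i replicate 1. Its relatives CBFA2T3 and CBFA2T2 had log2 fold changes of 0.04 ± 0.13 and 0.33 ± 0.17 (adjusted p = 0.895 and 0.297, edgeR).

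Among the ETS relatives of SPI1, FLI1, ERG and ETV6, 14 of 22 were tested, 1 rose and none fell, and the median log2 fold change was -0.09. FEV, known from serotonergic neurons, rose from 40, 44 and 30 reads in DMSO to 71, 96 and 102 in EZH2i (log2 fold change 1.31 ± 0.24, adjusted p = 0.00548, edgeR), and passed in all 13 alternative fits. ELF1 and ELF4, blood-expressed ETS activators with the highest levels in the list, had mean levels of 119 and 95.3 CPM in DMSO and of 113 and 86.2 CPM in EZH2i and had log2 fold changes of -0.08 ± 0.12 and -0.15 ± 0.11 (adjusted p = 0.780 and 0.495, edgeR).

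Of the 4 tested C/EBP relatives of CEBPA, 1 fell and none rose, with a median log2 fold change of -0.42. CEBPG, a dimer partner of other C/EBP proteins with roles in the stress response, fell from 437, 556 and 463 reads in DMSO to 264, 303 and 299 in EZH2i. Its log2 fold change was -0.68 ± 0.13 (adjusted p = 0.00586, edgeR), and the adjusted p was 0.0502 without DMSO replicate 1. CEBPB, a C/EBP protein of monocytes and inflammation, was at 63.9 ± 0.417 CPM in DMSO and 50.7 ± 6.25 CPM in EZH2i (log2 fold change -0.33 ± 0.12, adjusted p = 0.115, edgeR).

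No relative of IKZF1 (2 of 4 tested, median -0.04) or of MECOM and its partners (2 of 4 tested, median -0.07) passed. IKZF4 was the highest Ikaros relative at 43.8 ± 8.84 CPM in DMSO, with a log2 fold change of 0.03 ± 0.15. CTBP1, a corepressor that binds EVI1, was at 124 ± 8.60 CPM in DMSO and 103 ± 16.9 CPM in EZH2i (log2 fold change -0.26 ± 0.12, adjusted p = 0.260, edgeR).

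Of 15 other stem cell and myeloid regulators, 10 were tested, 1 rose and none fell, with a median log2 fold change of 0.02. EGR1, an immediate-early gene that also acts in monocytes, had 633, 597 and 1231 reads in DMSO and 1347, 1063 and 1396 in EZH2i. The groups overlapped on the CPM scale, and the log2 fold change was 0.74 ± 0.19 (adjusted p = 0.0334, edgeR). The call was lost with DESeq2 (adjusted p = 0.251) and without DMSO replicate 1, DMSO replicate 2 or EZH2i replicate 3 (adjusted p of 0.136, 0.157 and 0.0838). MYB and LYL1, regulators of progenitors and the highest of the list, were at 269 ± 37.4 and 229 ± 14.5 CPM in DMSO and had log2 fold changes of 0.04 ± 0.12 and 0.22 ± 0.11 (adjusted p = 0.906 and 0.298, edgeR).

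Of 20 known myeloid target genes of these factors, 8 were tested, 1 rose and none fell. All 8 had log2 fold changes above 0, with a median of 0.39. LYZ, the lysozyme gene of granulocytes and monocytes, had 105, 120 and 97 reads in DMSO and 170, 164 and 140 in EZH2i (log2 fold change 0.62 ± 0.17, adjusted p = 0.0426, edgeR). The call was lost with DESeq2 (adjusted p = 0.0867) and when any 1 of the 6 libraries was left out (0.0530 to 0.160). CD33, a surface receptor of myeloid cells, was the highest of the list at 69.2 CPM in DMSO and 75.6 CPM in EZH2i on average (log2 fold change 0.13 ± 0.12, adjusted p = 0.617, edgeR), and CST3, a secreted protease inhibitor, had 0.53 ± 0.15 (adjusted p = 0.0560, edgeR). MPO, CSF1R, ELANE and CTSG, classical targets of RUNX1, PU.1 and C/EBPα, had at most 1 read in any library.

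Of 9 stem and progenitor surface genes, 2 were tested and 1 rose. KIT, the stem cell factor receptor, had 107, 133 and 145 reads in DMSO and 153, 190 and 211 in EZH2i (log2 fold change 0.61 ± 0.16, adjusted p = 0.0372, edgeR). The call was lost with DESeq2 (adjusted p = 0.0707) and in 5 of the 6 fits that left out 1 library, up to 0.147 without EZH2i replicate 3. ANGPT1, the ligand of the TEK receptor, was at 187 ± 20.9 CPM in DMSO (log2 fold change 0.24 ± 0.11, adjusted p = 0.223, edgeR). CD34, THY1, FLT3 and TEK had 0 reads in all 6 libraries.

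The summed levels of granulocytic and monocytic and of stem and progenitor markers were higher in every EZH2i library than in every DMSO library. They rest on LYZ and KIT, whose calls were both lost with DESeq2. Of all tested genes, 13.3% had groups apart with EZH2i higher. The summed levels of lymphoid and megakaryocytic markers overlapped between groups. The summed level of the 6 granulocytic and monocytic markers was 12.3 to 18.0 CPM in DMSO and 21.9 to 24.5 CPM in EZH2i, nearly all from LYZ. The 3 stem and progenitor markers summed to 15.8 to 16.7 CPM in DMSO and 20.9 to 30.2 CPM in EZH2i, nearly all from KIT. Of the erythroid genes, HBZ, HBG2 and ALAS2 rose, with log2 fold changes of 1.15 ± 0.13, 0.58 ± 0.14 and 0.50 ± 0.12, and the factors GATA1 and KLF1 were at 0.28 ± 0.11 and -0.07 without passing (edgeR). The 5 lymphoid markers summed to 78.0 to 100 CPM in DMSO and 78.9 to 90.8 CPM in EZH2i, and the 5 megakaryocytic markers to 0.626 to 2.02 CPM in DMSO and 1.26 to 2.01 CPM in EZH2i, with no lymphoid or megakaryocytic marker called. The part of these differences in the values of SPI1, CEBPA and ETV6 was not tested.

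The genes whose pattern over the 6 libraries was most like that of ETV6 were TNRC6B, LINC01036 and PTPN6, at Euclidean distances of 0.0625, 0.120 and 0.145 between log2 CPM values centred on each gene's mean. TNRC6B, a component of microRNA-guided silencing, was at 152, 155 and 149 CPM in DMSO and 191, 179 and 259 CPM in EZH2i. Its highest value was in EZH2i replicate 3, which choosing genes by likeness to ETV6 favours. PTPN6, a phosphatase of blood cell signalling, was at 2.66, 2.97 and 2.84 CPM in DMSO and 4.06, 3.41 and 5.30 CPM in EZH2i. The likeness is a description over 6 libraries that share depth and treatment.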

How the data were processed

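RNA of the K562 clone was prepared as QuantSeq 3′ libraries, 3 per group. The authors deposited whole-number read counts per Ensembl gene, unnormalized, made with STAR 2.6.0c and HTSeq 0.11.2 on GRCh38 per the labels. A deposited table of their own DESeq2 comparison (fold changes and p-values) was not used. The 5 rows naming no gene were left out. Positions and symbols come from GENCODE 44 (GRCh38), which matched 60401 of 60671 identifiers.

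Genes were filtered with filterByExpr (minimum count 10), scaled by TMM and tested with edgeR 4.0.16 (glmQLFit, glmQLFTest, two-sided), without a block, in R 4.3.3. Benjamini-Hochberg adjustment ran over all 12364 tested genes, with a threshold of 0.05. The standard error is the log2 fold change divided by the square root of F. DESeq2 1.42.0, limma-voom (limma 3.58.1), other filters and scalings, a replicate block and leaving out each library were alternatives. The fitting script was tested on simulated counts in which 200 genes were changed.

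The 10 genes and the related lists were chosen with earlier results of these data known. From each list at most 3 called genes and the 2 highest in level are named, and for the gene with the smallest p the 3 most alike; other names were chosen after their values were seen. Depth limits precision: 3 reads correspond to 0.340 to 0.469 CPM per library. Replicate libraries of each group differed by more than sampling noise. Amino acid sequences were not used here. The summed level of the erythroid markers is not reported here.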

Additional observations from a re-analysis of the deposited data

How the results depend on the processing

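Across 90 alternative fits of the 7 tested genes, 3 passed the threshold, all for ETV6, and 2 changed sign, both for MECOM. With no filter on low counts 1 of the genes was called (ETV6, log2 fold change 0.45, adjusted p = 0.0464, edgeR), and leaving out 1 library at a time gave 0 to 1 called genes. ETV6 ranged from 0.31 to 0.57 in those fits, passing without EZH2i replicate 1 (0.53) and without EZH2i replicate 2 (0.57). MECOM ranged from -0.089 (without EZH2i replicate 2) to 0.20, and was -0.015 without DMSO replicate 3. The count over all genes was 928 without a filter (579 higher, 349 lower), 148 at an adjusted p under 0.01 (135 higher, 13 lower), 439 with DESeq2 (296 higher, 143 lower), and 209 to 536 with 1 library left out, in fits of fewer samples. It was lowest without a DMSO library: 213 without replicate 1 (180 higher, 33 lower), 209 without replicate 2 (189 higher, 20 lower) and 240 without replicate 3 (185 higher, 55 lower). The medians of the related lists moved by more than the spread in 12 of 104 cases, most of them where genes with few reads entered the test. Without a filter the Ikaros relatives were at 0.45 and the MECOM relatives at 0.76. The myeloid target genes, at 0.39 in the main fit, were at 0.60 without a filter. Their median was 0.26 with at least 10 counts required in every library. With 1 library left out, medians near 0 ranged from -0.16 to -0.06 (ETS relatives), -0.14 to 0.12 (Ikaros relatives), -0.11 to -0.03 (MECOM relatives) and -0.02 to 0.08 (other regulators).

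Replicate numbers were the same in both groups, but same-numbered libraries did not deviate together (correlations of -0.05, -0.02 and -0.02, and 0 libraries closest to their own number). With the replicate number as a block 599 genes and 0 of the 7 were called, and ETV6 had an adjusted p of 0.0624 (edgeR). Genes with few reads were limited by depth: the interval of CEBPA spanned from below 0 to past 2-fold, and RUNX3, FLI1 and ERG could not be tested.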
